A study of Mus musculus with 18 samples.

Results

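The 8 genes described here, Rhox5, Dppa2, Tmsb4x, Nckap1l, Ptpn13, Gstp2, Pir and Fam178b, were lower in B16F10 cells carrying either transgene, MRTFA or MRTFB, than in the B16F10 cells with the empty vector. They are 8 of the 18909 genes in the deposited table. They were chosen by symbol because of these B16F10 values, so the B16F10 values are given below as a description, without a test. B16F10 is a mouse melanoma line and E0771 a mouse mammary tumour line, both of C57BL6 origin. Each line carried a pRetrox retroviral vector with MRTFA, with MRTFB or with no insert (control), in 3 replicates per group, 18 libraries in all. All 6 groups, controls included, were cultured in RPMI with 10% FBS and had doxycycline (500 ng/mL) for 48 h, which switches on the transgene. The labels name neither a clone nor a pool behind a group, nor whether replicates were separate cultures, so p-values measure only the spread between these libraries, which may be technical. The question the comparisons address is which genes respond to each factor, and, for these 8, whether the controls or the transgene libraries set the difference and whether E0771 showed it too.

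MRTFA and MRTFB (file symbols Mkl1 and Mkl2) are coactivators of serum response factor. Monomeric actin holds them in the cytoplasm, and they move to the nucleus when monomers are taken up into filaments, where they switch on genes of the cytoskeleton. The 8 genes come from unlike pathways. Rhox5 and Dppa2 belong to the genes used in germ cells, placenta or early embryos, a class that most somatic cells hold silent by DNA methylation. Tmsb4x, Nckap1l and Ptpn13 code for proteins of the actin cytoskeleton and the membrane beneath it. Gstp2 and Pir are grouped here with the glutathione and NRF2 genes, NRF2 being the factor that induces antioxidant enzymes through the antioxidant response element.

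Recovered reads per library ran from 27607055 to 37116655. Values are scaled reads, that is reads divided by the authors' size factor of the library. Melanocyte markers were present for 12 of 12 genes in all B16F10 groups, with a summed level of 580200 to 783200 scaled reads per library, against 390.1 to 644.7 in E0771. Mammary epithelial markers, 10 of 11 with a row, summed to 5858 to 17240.0 in E0771 libraries and 57.18 to 236.5 in B16F10. Elf5 and Krt5 were at 0 in the E0771 controls. A mean of 10 or more was reached by 6 of these markers in E0771 MRTFA, 7 in E0771 MRTFB and 6 in E0771 control. In B16F10 it was reached by 7 in MRTFA, 4 in MRTFB and 3 in control, so this count did not part B16F10 MRTFA from E0771. Mkl1 averaged 1205 ± 266 in the B16F10 MRTFA libraries and 1015 ± 83.3 in controls (SD, n = 3 each, limma adjusted p = 0.856), and Mkl2 averaged 1886 ± 128 in the B16F10 MRTFB libraries and 1501 ± 330 in controls (limma adjusted p = 0.503). In B16F10 the transgenes' own genes therefore did not pass the test, and group names below follow the labels. Acta2, the smooth muscle actin gene and a known MRTF target, averaged 56336 ± 17915 in MRTFA, 11340 ± 14469 in MRTFB and 479 ± 311 in control libraries of B16F10. Its fitted log2 difference was 7.07 for MRTFA (limma adjusted p = 0.00133) and 3.93 for MRTFB (limma adjusted p = 0.159). In E0771, Mkl1 rose by 3.34 with MRTFA (limma adjusted p = 4.68e-07) and Mkl2 by 0.68 with MRTFB (limma adjusted p = 0.0306). Replicate 3 stood apart in 2 B16F10 groups. Among 13517 genes, 5.21% and 5.51% differed over 2-fold between control replicate 3 and replicates 1 and 2, against 2.66% between replicates 1 and 2, and in MRTFB the shares were 6.01% and 6.07% against 2.71%. This was not confined to B16F10. In E0771 the shares were 5.5% and 4.6% against 2.4% in MRTFA and 8.0% and 5.9% against 4.2% in MRTFB. In E0771 control they were 5.5% and 5.7% against 5.4%.

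In B16F10, all 6 transgene libraries lay below all 3 control libraries for each of the 8 genes. Among all 13517 tested genes, 3.25% showed that pattern. The fitted log2 differences ran from -1.48 to -2.69 for MRTFA and from -1.96 to -3.05 for MRTFB. At a limma adjusted p under 0.05, 0.207% of all genes were called lower with MRTFA and 0.111% with MRTFB, and no such call is counted for the 8. With the replicate number as a block, since equal numbers were read as pairs in B16F10, 317 genes of all tested were called lower with MRTFA and 383 with MRTFB, against 28 and 15 without the block. The B16F10 calls and p-values of other named genes, above and below, come from fits without the block. No result with the block is given for those genes, so some that did not pass may pass with it. Both comparisons use the same 3 control libraries. Because these contrasts chose the genes, the shares over all genes are background and nothing is read from them. In cell cultures measured in bulk, fewer cells that make an RNA and less of it per cell cannot be told apart.

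**Figure D1:**
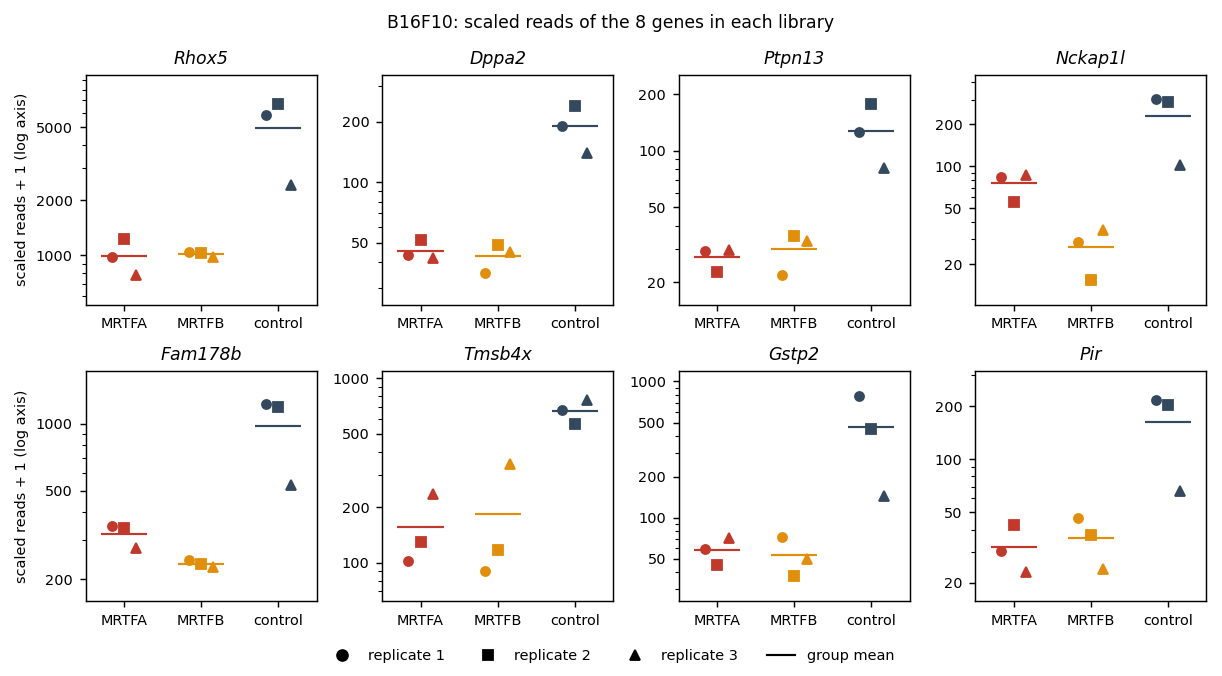
Scaled reads plus 1 (log axis) of the 8 genes in the 9 B16F10 libraries, by group, with 1 symbol per replicate number and a bar at each group mean. All 6 transgene libraries lie below all 3 controls in each panel, and control replicate 3, the triangle, is the lowest control in 7 of the 8 panels.

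Rhox5 is an X-linked homeobox gene of the reproductive homeobox cluster, used in Sertoli cells of the testis and in placenta. It lies on the plus strand of chrX:37804842-37808876 (GRCm38, GENCODE M21). Its scaled reads were 981, 1228 and 780 in MRTFA replicates 1, 2 and 3, and 1041, 1028 and 981 in MRTFB, against 5784, 6682 and 2424 in control. The 6 transgene libraries lay within 1.57-fold of each other, while the controls spanned 2.76-fold. The fitted log2 difference was -2.21 for MRTFA and -2.16 for MRTFB (SE 0.32 each). Per kilobase of exon, Rhox5 had the highest level of the 8 genes in B16F10 controls, 6583 scaled reads per kb.

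Dppa2 codes for a DNA-binding protein of pluripotent cells and the germ line. It lies at chr16:48303908-48319723 on the plus strand. It had 42.3, 50.7 and 41.0 scaled reads in MRTFA replicates 1 to 3 and 34.3, 47.6 and 44.1 in MRTFB, against 189.5, 238.6 and 138.4 in control. Of the 8 genes its transgene libraries were the closest together, 1.48-fold from lowest to highest. MRTFA differed from control by -2.03 and MRTFB by -2.12 on the log2 scale (fitted values, SE 0.23 each). Dppa2 shares 29.1% of its 50-base transcript words with other genes, 27.1% with Gm9788, so its reads may be partly split with those copies.

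Among the other germ cell genes, 15 of 29 listed had a row and 4 were tested in B16F10, of which none passed limma's test with either transgene. At an unadjusted p under 0.05 there was 1, Fkbp6, with each transgene, which DESeq2 called with MRTFB and edgeR with neither. Over all genes, 1.55% passed either way with MRTFA and 0.126% with MRTFB. Fkbp6, a chaperone of meiotic cells, had a log2 difference of -0.30 with MRTFA and -0.39 with MRTFB at a mean of 6527 ± 241 in MRTFA, 6170.0 ± 469 in MRTFB and 8097 ± 1033 in control. Tdrkh, a piRNA pathway protein, differed by -0.02 and -0.09. The median of the 4 was -0.22 with MRTFA and -0.13 with MRTFB, beside -0.01 and 0.00 over all tested genes. No gene of DNA methylation and its readers passed in B16F10, among 17 tested, by limma, edgeR or DESeq2 without the replicate block. In the same limma fit 0 had an unadjusted p under 0.05. Uhrf1, which keeps methylation through replication, differed by -0.18 with MRTFA and -0.12 with MRTFB (limma adjusted p = 0.75 and 0.879).

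Of the Rhox genes beside Rhox5, Rhox2d was picked out after its values were seen, for a similar layout. It had 156, 137 and 160.2 scaled reads in MRTFA and 121, 111 and 116 in MRTFB, against 457, 507 and 216 in control. Its differences of -1.28 and -1.66 did not pass the test (limma adjusted p = 0.0516 for MRTFA and 0.0702 for MRTFB). Rhox2g, at 570.0 ± 81.6 in MRTFA, 491 ± 53.9 in MRTFB and 629 ± 125 in control, differed by -0.13 and -0.34 (limma adjusted p = 0.949 and 0.61). Rhox2h was higher with MRTFA, 36.7 ± 17.4 against 1.61 ± 0.57 in control (limma adjusted p = 0.00366). Rhox1 had no read in any B16F10 library. Rhox2 genes are near-identical copies, and how reads were split among them is uncertain.

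Tmsb4x codes for a small protein that binds actin monomers and keeps them from polymerising, and it lies at chrX:167207093-167209315 on the minus strand. Its scaled reads were 101, 128 and 235 in MRTFA replicates 1 to 3 and 88.6, 116 and 342 in MRTFB, against 669, 561 and 757 in control. Replicate 3 was the highest library in every group, and the transgene libraries spanned 3.86-fold. Fitted log2 differences were -2.17 for MRTFA and -2.10 for MRTFB (SE 0.45 each). Of 10 other actin monomer binders tested, 1 passed limma in B16F10, Dstn (destrin, an actin-severing protein), which was higher with MRTFA, as 1.34% of all genes were, at 16852 ± 3190 against 6595 ± 530 in control (log2 difference 1.34, limma adjusted p = 0.00124).

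Nckap1l is the blood-cell subunit of the WAVE complex, which drives branching of actin filaments, and lies at chr15:103453794-103498810 on the plus strand. It had 82.7, 54.8 and 85.8 scaled reads in MRTFA replicates 1 to 3 and 27.6, 14.5 and 34.1 in MRTFB, against 299, 287 and 101 in control. The highest MRTFB library was below the lowest MRTFA library. The fitted log2 difference was -1.48 for MRTFA and -3.05 for MRTFB (SE 0.44 each), and MRTFB minus MRTFA was -1.57 (95% interval -2.54 to -0.60). Control replicate 3 was only 1.18 times the highest transgene library. None of 11 other WAVE complex and Rac genes passed limma or edgeR in B16F10. Cyfip2 had an unadjusted limma p under 0.05 with both transgenes, and DESeq2 called it with MRTFB. Nckap1, the widely used paralog, averaged 21747 ± 2198 in MRTFA, 22423 ± 2986 in MRTFB and 21456 ± 1006 in control.

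Since Nckap1l marks blood cells, the other 15 blood cell markers listed were read beside it. A row existed for 10 of them. Their summed level per B16F10 library was 128.1 to 188.8 scaled reads in MRTFA, 86.73 to 127.3 in MRTFB and 71.08 to 154.6 in control. A mean of 10 or more was reached by 6 of them in MRTFA, 4 in MRTFB and 5 in control, where these were Was, Fcer1g, Coro1a, Lyz2 and Cd68. Coro1a, an actin-binding protein of blood cells, had 20.2 to 25.9 scaled reads in MRTFA, 3.01 to 5.18 in MRTFB and 9.74 to 15.3 in control. Lyz2, a lysozyme of macrophages and granulocytes, had 18.1 to 49.6 in MRTFA, 15.5 to 24.1 in MRTFB and 2.92 to 46.8 in control, and in control its highest library was replicate 3, the control with the least Nckap1l. Vav1, a signalling protein of blood cells, was the 1 marker at 0 in all 9 libraries. The part of blood cell markers in the B16F10 Nckap1l difference was not tested.

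Ptpn13 is a large tyrosine phosphatase with FERM and PDZ domains at the membrane, at chr5:103425192-103598303 on the plus strand. It had 28.2, 21.7 and 28.6 scaled reads in MRTFA replicates 1 to 3 and 20.97, 34.2 and 32.1 in MRTFB, against 125, 175 and 80.2 in control. Its transgene libraries lay within 1.63-fold of each other. On the log2 scale the fitted difference was -2.17 for MRTFA and -2.05 for MRTFB (SE 0.31 each). None of 12 other non-receptor phosphatases tested passed limma, edgeR or DESeq2 in B16F10, and 1 had an unadjusted limma p under 0.05 with each transgene (Ptpn9 with MRTFA and Ptpn14 with MRTFB). Ptpn14, which also has a FERM domain, differed by -0.11 with MRTFA and -0.19 with MRTFB (limma adjusted p = 0.834 and 0.556). Per kilobase of exon Ptpn13 had the lowest level of the 8 genes in B16F10 controls, 10.5 scaled reads per kb.

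Gstp2 is a pi-class glutathione S-transferase, an enzyme that couples glutathione to reactive compounds, and lies at chr19:4040285-4046023 on the minus strand. It had 58.5, 44.5 and 69.6 scaled reads in MRTFA replicates 1 to 3 and 71.5, 36.2 and 49.1 in MRTFB, against 788, 447 and 143 in control. Its controls spanned 5.50-fold, the widest of the 8 genes. The fitted log2 difference was -2.69 for MRTFA and -2.85 for MRTFB (SE 0.52 each). Gstp2 shares 54.3% of its 50-base transcript words with other genes, 49.1% with Gstp1, so reads may be split between both. Gstp1, whose gene ends 2300 bases away, averaged 7137 ± 1300 in MRTFA, 7194 ± 1457 in MRTFB and 8021 ± 773 in control, a log2 difference of -0.18 and -0.17 (limma adjusted p = 0.893 and 0.875).

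Pir codes for pirin, an iron-binding nuclear protein, and lies at chrX:164269371-164373011 on the plus strand. It had 29.2, 41.4 and 21.9 scaled reads in MRTFA replicates 1 to 3 and 45.7, 36.2 and 23.1 in MRTFB, against 216, 203 and 64.9 in control. Replicate 3 was the lowest library in every group. Fitted log2 differences were -2.21 for MRTFA and -2.04 for MRTFB (SE 0.46 each). Of 26 other glutathione and NRF2 genes tested, none passed limma or edgeR in B16F10. At an unadjusted limma p under 0.05 there were 5 with MRTFA and 7 with MRTFB, and DESeq2 called 1 with MRTFA (Gclc) and 2 with MRTFB (Gclc and Srxn1). Their median log2 difference was -0.01 with MRTFA and -0.03 with MRTFB, beside -0.01 and 0.00 over all tested genes. Txnrd1, a thioredoxin reductase that NRF2 induces, differed by 0.02 and 0.10.

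The bases before the start of transcription are printed for Gstp2 and Pir, which are grouped by an element NRF2 binds, and for Tmsb4x, whose direction differed between the lines. They are the 250 bases before the RefSeq start on GRCm38.p6, read 5′ to 3′ on the gene's strand, and 6 of the 8 genes had an entry. The letters searched, on either strand, were TGACNNNGC and TGAGNNNGC, which resemble the antioxidant response element, and the CArG box that serum response factor binds. Capitals mark matches. They span chr19:4042222-4042471 (minus strand) for Gstp2, chrX:164269181-164269430 (plus strand) for Pir and chrX:167209219-167209468 (minus strand) for Tmsb4x.
Gstp2: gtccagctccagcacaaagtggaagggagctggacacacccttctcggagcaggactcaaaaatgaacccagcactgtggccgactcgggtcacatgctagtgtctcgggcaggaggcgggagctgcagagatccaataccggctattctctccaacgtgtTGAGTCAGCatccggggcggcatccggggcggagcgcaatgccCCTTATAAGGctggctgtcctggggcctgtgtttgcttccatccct
Pir: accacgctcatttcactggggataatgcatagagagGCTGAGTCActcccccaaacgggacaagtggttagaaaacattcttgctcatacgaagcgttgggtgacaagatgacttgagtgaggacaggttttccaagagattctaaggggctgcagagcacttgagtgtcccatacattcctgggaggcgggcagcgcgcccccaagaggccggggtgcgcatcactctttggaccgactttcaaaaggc
Tmsb4x: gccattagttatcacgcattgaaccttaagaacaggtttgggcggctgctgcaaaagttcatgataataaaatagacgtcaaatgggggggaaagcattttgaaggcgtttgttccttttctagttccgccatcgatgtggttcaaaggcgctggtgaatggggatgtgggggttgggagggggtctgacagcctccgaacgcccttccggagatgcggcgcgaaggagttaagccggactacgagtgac
Gstp2 held TGAGTCAGC starting 89 bases before the start, and a CArG box, CCTTATAAGG, starting 46 bases before it. This RefSeq start lies inside the GENCODE gene, whose 5′ end on the minus strand is at 4046023. Pir held GCTGAGTCA, a match on the opposite strand, starting 214 bases before the start. Tmsb4x held no match. Of the other 3 genes with an entry, Ptpn13 held TGACAGGGC starting 40 bases before its start, and 1 of 3 starts of Fam178b held GCCCTCTCA, a match on the opposite strand, starting 14 bases before it. Rhox5, whose RefSeq start lies upstream of the GENCODE gene, held none. The antioxidant-like letters were thus in 4 of 6 genes with an entry, 2 of them outside the glutathione and NRF2 group, and the CArG box in 1 of 6. A gene counts here if any of its starts matched, while the shares that follow are per promoter, so the units are unlike. Of 32851 promoters of this length, 23.0% held TGACNNNGC or TGAGNNNGC, 10.2% the first and 14.4% the second, and 1.47% held a CArG box. These matches describe letters, not binding.

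Fam178b lies at chr1:36562692-36683183 on the minus strand. It had 346, 339 and 277 scaled reads in MRTFA replicates 1 to 3 and 243, 233 and 226 in MRTFB, against 1220, 1185 and 528 in control. The MRTFB libraries were all below the MRTFA libraries. The fitted log2 difference was -1.52 for MRTFA and -1.96 for MRTFB (SE 0.27 each), and MRTFB minus MRTFA was -0.45 (95% interval -1.05 to 0.16). Transcripts on the opposite strand overlap Fam178b and Ptpn13. Whether counting used strand was not stated, so reads of the overlapping genes cannot be told apart. D430040D24Rik, which overlaps Fam178b, reached at most 83.7 scaled reads in any library.

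For the other 6 genes, MRTFB minus MRTFA in B16F10 lay between -0.17 and 0.17 on the log2 scale. The intervals were wide, reaching from -1.32 to 0.98 for Gstp2 and from -0.61 to 0.43 for Dppa2, so the 2 transgene groups sat at similar levels within errors that leave room for a difference.

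Control replicate 3 set much of the spread. For 7 genes, all but Tmsb4x, it was the lowest of the 3 controls, and it still lay above every transgene library. On a scale where the mean of the 6 transgene libraries is 0% and the mean of control replicates 1 and 2 is 100%, it stood at 15.7% for Gstp2, 18.1% for Pir, 21.1% for Nckap1l, 27.1% for Rhox5 and Fam178b, 42.9% for Ptpn13 and 55.7% for Dppa2. For Tmsb4x it stood at 132%, the highest control.

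**Figure D2:**
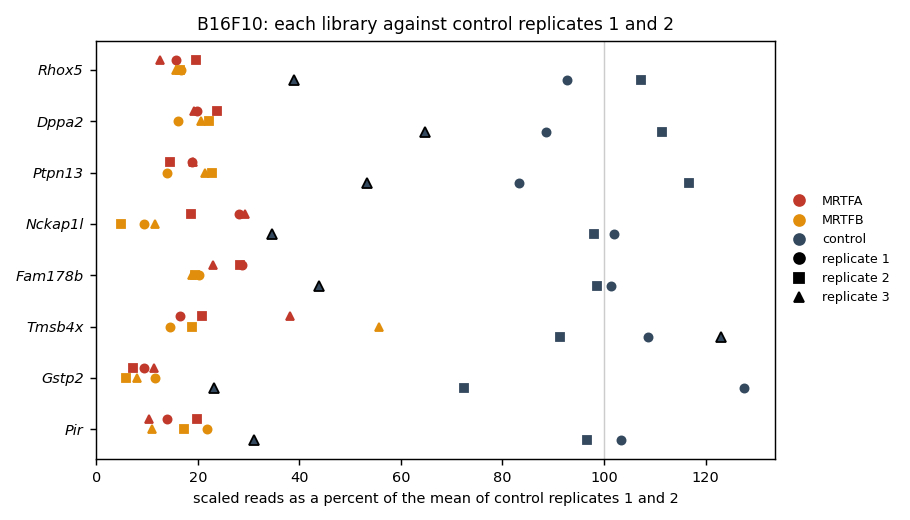
Scaled reads of each B16F10 library as a percent of the mean of control replicates 1 and 2, by gene, with MRTFA above MRTFB above control in each row. Control replicate 3, the outlined triangle, lies between the transgene libraries and the other 2 controls for 7 genes, and above the other controls for Tmsb4x.

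Every control lay above every transgene library, so leaving out 1 control could change the size of a difference but not its direction. With control replicate 1 left out, the log2 differences of the 8 genes ran from -1.21 (Nckap1l) to -2.16 (Tmsb4x) for MRTFA and from -1.74 (Pir) to -2.78 (Nckap1l) for MRTFB. With control replicate 2 left out they ran from -1.24 (Nckap1l) to -2.55 (Gstp2) and from -1.78 (Fam178b) to -2.81 (Nckap1l). With control replicate 3 left out they were larger for 7 genes, reaching -3.37 for Gstp2 with MRTFA and -3.56 for Nckap1l with MRTFB, and smaller for Tmsb4x, at -2.07 with MRTFA and -2.0015 with MRTFB.

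Libraries of the same replicate number gave the same direction in 3 of 3 pairs for each gene and each transgene. This follows from groups that do not overlap and adds nothing to it. The size varied with the number. In replicate 3 the difference was the smallest of the 3 pairs for all 8 genes with both transgenes. It was -0.23 for Nckap1l with MRTFA, against -1.84 and -2.37 in replicates 1 and 2, and -1.03 for Gstp2 with MRTFA, against -3.73 and -3.30. For Dppa2 with MRTFA it was -1.73, against -2.14 and -2.21.

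The layout of control replicate 3 was not confined to these 8 genes. Leaving control replicate 3 aside, 21 other genes with a mean of at least 50 scaled reads had both other controls over 2-fold above the highest transgene library. In all 21 of them control replicate 3 was below both other controls, and in 12 of 21 it was above all transgene libraries. Its median position on the same scale was 15.99% (range -3.09 to 54.8%). Leaving control replicate 1 aside gave 0 such genes and leaving control replicate 2 aside gave 1, Gria3. In E0771 the same rule gave 1, 1 and 2 genes. Over all genes, those called lower numbered 83 with MRTFA and 92 with MRTFB when control replicate 3 was left out, 5 and 0 when control replicate 1 was left out (where 772 genes had an unadjusted limma p under 0.05 with MRTFB), and 8 and 2 when control replicate 2 was left out. What distinguishes control replicate 3 from the other controls was not tested.

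The 8 genes lie on 6 chromosomes, and 3 of them, Rhox5, Tmsb4x and Pir, on the X, which holds 464 of the 13517 tested genes (3.43%). Of the other 461 X-linked genes tested, 2 (0.434%) were called lower with MRTFA and 1 (0.217%) with MRTFB, beside the 0.207% and 0.111% of all genes. Within 500 kb of the 8 genes no other tested protein-coding gene was called lower with either transgene. Genes of other types were not counted in these windows. The windows held 1 tested protein-coding gene at Dppa2 and Tmsb4x, 5 at Rhox5, Ptpn13 and Pir, 8 at Nckap1l, 14 at Fam178b and 32 at Gstp2. Rhox2h, beside Rhox5, was the 1 gene in them called higher, with MRTFA (3.76), and Rhox2d in the same window had the differences of -1.28 and -1.66 given above, which did not pass (limma adjusted p = 0.0516 and 0.0702).

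Of the nearest tested protein-coding genes on either side, none was called lower with either transgene. Morc1, a germ cell gene that is the next tested protein-coding gene beyond Dppa2, differed by 0.34 with MRTFA and -0.35 with MRTFB. Aff1, next to Ptpn13, differed by 0.11 and -0.04. Sema4c and Cox5b, which flank Fam178b, differed by -0.15 and -0.04 with MRTFA and by 0.06 and 0.07 with MRTFB. Prps2 beside Tmsb4x differed by -0.01 and 0.00, and Piga beside Pir by -0.25 and -0.22. Pde1b and Itga5 flank Nckap1l, 4224 and 87031 bases from it. Pde1b differed by -0.40 with MRTFA and -0.62 with MRTFB, and neither passed (limma adjusted p = 0.902 and 0.735). Itga5, an integrin gene, was at 4045 ± 1125 in MRTFA, 1409 ± 527 in MRTFB and 1789.9 ± 169 in control. Its differences of 1.14 with MRTFA and -0.41 with MRTFB did not pass either (limma adjusted p = 0.0788 and 0.755).

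**Figure D3:**
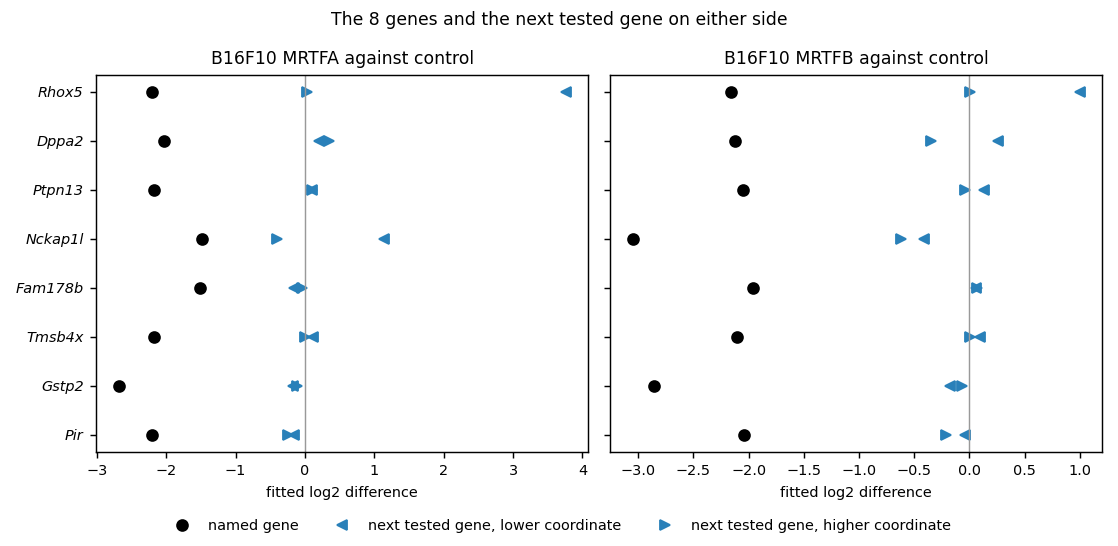
Fitted log2 difference (transgene minus control) in B16F10 of each of the 8 genes, as a black dot, and of the next tested protein-coding gene on either side, as triangles, for MRTFA in the left panel and MRTFB in the right. The dots lie at -1.48 or lower, and of the neighbours the highest is Rhox2h at 3.76 with MRTFA.

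Genes whose pattern was most like that of each of the 8 were found by Pearson's r over the 18 libraries, after the mean of the line was taken off, among 10765 genes with a mean of at least 50. The libraries share their groups and replicate numbers, and those of B16F10 were used to choose the 8 genes, so r is a description. For Rhox5 they were Rasal3 (0.946) and Pir (0.938), and for Pir they were Rhox5 (0.938) and Aldh9a1 (0.905). For Dppa2 they were Rhox2d (0.88) and Rhox5 (0.875), for Ptpn13 they were Pax9 (0.907) and Dppa2 (0.903), and for Nckap1l they were Rhox2d (0.915) and Lrrc75a (0.909). For Fam178b they were Frzb (0.892) and Tcf7l1 (0.822), for Tmsb4x they were Plekhf1 (0.881) and Frzb (0.871), and for Gstp2 they were Copz2 (0.904) and Nr5a1 (0.868). Frzb, a secreted inhibitor of Wnt signalling, had 1284 ± 138 scaled reads in MRTFA, 1318 ± 266 in MRTFB and 2695 ± 528 in control of B16F10. Rasal3 had a mean of 0 in every E0771 group, so its likeness to Rhox5 comes from B16F10 alone. Frzb averaged at most 1.63 scaled reads in an E0771 group, and Ptpn13, Fam178b and Gstp2 were near 0 there. The r of these genes therefore says little about E0771.

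In E0771, whose libraries the choice of genes did not use, the 8 genes did not move together. With MRTFA, Tmsb4x and Nckap1l rose and Rhox5 fell, Dppa2 and Pir did not pass the test, and Ptpn13, Fam178b and Gstp2 had too few reads to test. Of all 13189 genes tested in E0771, 20.3% were called higher and 18.1% lower with MRTFA, 38.4% in all, so a call was common there. With MRTFB only Tmsb4x passed, where 0.136% of all genes were called higher and 0.144% either way.

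**Figure D4:**
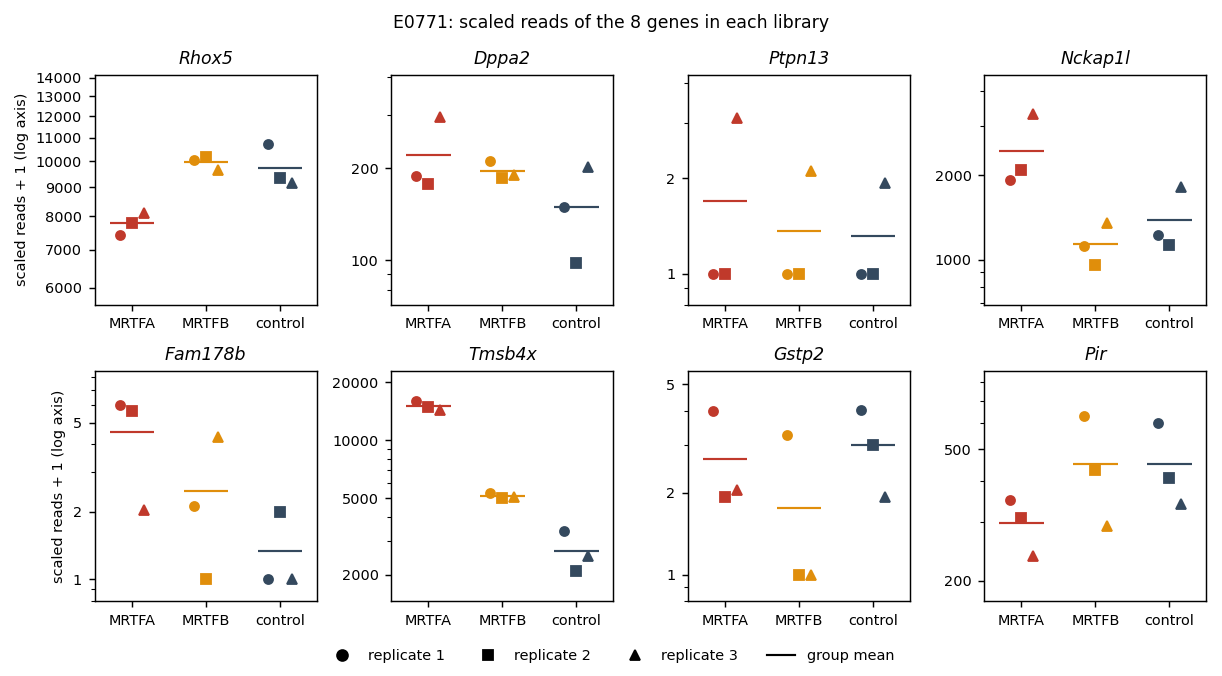
Scaled reads plus 1 (log axis) of the 8 genes in the 9 E0771 libraries, by group, with 1 symbol per replicate number and a bar at each group mean. Tmsb4x is highest in MRTFA, Rhox5 is lowest in MRTFA, and Ptpn13, Fam178b and Gstp2 are near 0 in every library.

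Tmsb4x had 15916, 14867 and 14356 scaled reads in E0771 MRTFA replicates 1 to 3 and 5325, 4979 and 5063 in MRTFB, against 3366, 2097 and 2501 in control. All 3 groups were apart from each other. Over all genes, 24.2% had every MRTFA library above every control and 3.04% every MRTFB library. It rose by 2.53 on the log2 scale with MRTFA (SE 0.14, limma adjusted p = 4.68e-07) and by 0.98 with MRTFB (SE 0.14, limma adjusted p = 0.0306), in 3 of 3 libraries each, and MRTFB against MRTFA was -1.55 (limma adjusted p = 1.54e-05, in a comparison where 33.6% of genes were called). The MRTFB call was lost without any 1 of the MRTFB libraries, or without control replicate 2 or 3, at limma adjusted p from 0.0826 to 0.164 and log2 differences from 0.819 to 0.996. It was also lost in a fit of only the 6 libraries compared (0.98, limma adjusted p = 0.15) and without replicate 3 in any group (0.95, limma adjusted p = 0.331). The call held without control replicate 1 (limma adjusted p = 0.00232) and with the replicate number as a block (limma adjusted p = 0.00931). It held with edgeR (adjusted p = 0.0458) and DESeq2 (adjusted p = 7.2e-07) too. Per kilobase of exon its E0771 control level was 1936 scaled reads per kb and its B16F10 control level 483. The order of the groups was E0771 MRTFA, E0771 MRTFB, E0771 control, B16F10 control, B16F10 MRTFB and B16F10 MRTFA, of which the last pair overlapped.

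Of the 10 other actin monomer binders tested in E0771, 5 rose with MRTFA (Dstn, Cfl2, Gsn, Cap1 and Pfn1), Dstn by 2.43 (limma adjusted p = 4.84e-08), and none fell. Over all genes, 20.3% were called higher and 18.1% lower. The median log2 difference of the 10 binders was 0.46 beside -0.02 over all tested genes. With MRTFB none passed by limma, edgeR or DESeq2, and 1, Dstn, had an unadjusted limma p under 0.05.

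Nckap1l had 1921, 2084 and 3306 scaled reads in E0771 MRTFA and 1114, 955 and 1349 in MRTFB, against 1224, 1129.6 and 1810.0 in control. The MRTFA libraries all lay above the controls. It rose by 0.80 with MRTFA (SE 0.23, limma adjusted p = 0.0188). The call was lost without MRTFA replicate 3 (0.56, limma adjusted p = 0.0578), without control replicate 1 (0.73, limma adjusted p = 0.0665) and without control replicate 2 (0.67, limma adjusted p = 0.0627). With MRTFB the difference was -0.27 (95% interval -0.78 to 0.24, limma adjusted p = 1), and MRTFB against MRTFA was -1.07 (limma adjusted p = 0.00507). Nckap1l thus had the lower level in MRTFB than in MRTFA in both lines. Its group means fell in the order E0771 MRTFA (2437), E0771 control (1388), E0771 MRTFB (1139), B16F10 control (229), B16F10 MRTFA (74.4) and B16F10 MRTFB (25.4), of which only E0771 control and E0771 MRTFB overlapped. The 10 other blood cell markers with a row summed to 1243 to 1903 scaled reads in MRTFA, 204.3 to 274.7 in MRTFB and 149.2 to 326.1 in control libraries of E0771. Of the 5 of them tested, Lcp2 and Coro1a rose and Lyz2 fell with MRTFA, where 38.4% of all genes were called. Most of the MRTFA sum was Lcp2, an adaptor protein of T cell signalling, at 945 to 1574 in MRTFA, 0 to 6.62 in MRTFB and 0 to 3.74 in control (limma adjusted p = 4.55e-06 for MRTFA). Coro1a was at 116 to 148 in MRTFA, 6.62 to 13.5 in MRTFB and 1.01 to 4.67 in control (limma adjusted p = 3.38e-06 for MRTFA). Lyz2 was at 70.6 to 91.6 in MRTFA, 130 to 146 in MRTFB and 97.1 to 183 in control (limma adjusted p = 0.0395 for MRTFA). Cd68 was at 39.0 to 101 in MRTFA, 56.3 to 104 in MRTFB and 38.1 to 122 in control. Csf1r was at 8.96 to 15.7 in MRTFA, 3.31 to 11.3 in MRTFB and 5.61 to 9.06 in control. Spi1 and Laptm5 had at most 1.99 scaled reads in any E0771 library, and Vav1, Was and Fcer1g at most 5.52. The part of blood cell markers in the Nckap1l difference was not tested. Of 10 other WAVE complex and Rac genes tested, Wasf2 rose (0.44) and Abi2 and Brk1 fell (-0.43 and -0.28) with MRTFA, beside 38.4% of all genes called.

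Rhox5 had 7420, 7790 and 8119 scaled reads in E0771 MRTFA and 10031, 10163 and 9660 in MRTFB, against 10720, 9346 and 9142 in control. The MRTFA libraries were all below the other 6, and 25.9% of all genes had every MRTFA library below every control. It fell by 0.32 on the log2 scale with MRTFA (SE 0.08, limma adjusted p = 0.0104), and MRTFB against MRTFA was 0.36 (limma adjusted p = 0.00706). With MRTFB the difference was 0.03 (95% interval -0.15 to 0.22, limma adjusted p = 1). All E0771 libraries held more Rhox5 than any B16F10 library. In order, the group means were 9951 in E0771 MRTFB, 9736 in E0771 control, 7776 in E0771 MRTFA, 4964 in B16F10 control, 1017 in B16F10 MRTFB and 996 in B16F10 MRTFA, and the first pair and the last pair overlapped.

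Dppa2 had 188, 176 and 295 scaled reads in E0771 MRTFA and 210.5, 185 and 189 in MRTFB, against 148, 97.1 and 201 in control. The groups overlapped. The difference was 0.58 with MRTFA (95% interval -0.02 to 1.19, limma adjusted p = 0.116) and 0.45 with MRTFB (95% interval -0.15 to 1.05, limma adjusted p = 1). The group means were, in order, 219.8 in E0771 MRTFA, 194.9 in E0771 MRTFB, 188.8 in B16F10 control, 148.7 in E0771 control, 44.7 in B16F10 MRTFA and 42.0 in B16F10 MRTFB. The first 4 overlapped, and so did the last 2. Without control replicate 3, Dppa2 passed with MRTFA (0.83, limma adjusted p = 0.0365). With the replicate number as a block it passed too (limma adjusted p = 0.0338), but equal numbers were not read as pairs in that comparison.

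Pir had 351, 307 and 236 scaled reads in E0771 MRTFA and 630.2, 430.2 and 292 in MRTFB, against 600.1, 408 and 339 in control. Replicate 1 was the highest and replicate 3 the lowest in every group. Every E0771 library lay above every B16F10 library. The difference was -0.57 with MRTFA (95% interval -1.21 to 0.07, limma adjusted p = 0.149) and -0.02 with MRTFB (95% interval -0.66 to 0.62, limma adjusted p = 1). With the replicate number as a block the MRTFA difference passed (limma adjusted p = 0.00464), under the same limit on pairing as for Dppa2. Of 23 other glutathione and NRF2 genes tested in E0771, 2 rose and 10 fell with MRTFA, with a median log2 difference of -0.36 beside -0.02 over all genes. Over all genes, 20.3% were called higher and 18.1% lower. Txnrd1 fell by 0.36 (limma adjusted p = 0.0105).

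Of 10 phosphatases related to Ptpn13 and tested in E0771, Ptpn21, Ptpn23 and Ptpn14 rose and Ptpn6 fell with MRTFA, beside 38.4% of all genes called. Ptpn13, Fam178b and Gstp2 themselves were near the limit of detection in E0771. Over the 3 libraries of a group, Ptpn13 had 2 reads in MRTFA, 1 in MRTFB and 1 in control, Gstp2 had 5, 2 and 6, and Fam178b had 11, 4 and 1. Where a library shows 0 reads, as many as 3 would still be within counting error. No fold is given for these genes, which were not tested in E0771, and a difference was not detectable at this depth for Ptpn13 and Gstp2. In B16F10 controls the same genes had 394, 1428 and 3038 reads over 3 libraries, in the order Ptpn13, Gstp2 and Fam178b.

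**Figure D5:**
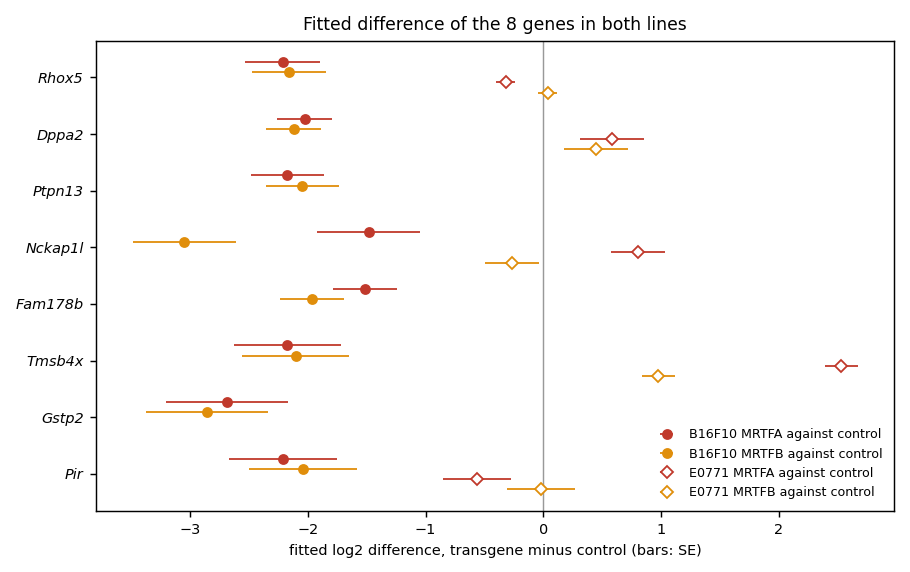
Fitted log2 difference of each gene, transgene minus control, with its SE as a bar, for MRTFA and MRTFB in B16F10 (filled circles) and in E0771 (open diamonds). The B16F10 points lie between -1.48 and -3.05 and the E0771 points between -0.57 and 2.53, and Ptpn13, Fam178b and Gstp2 have no E0771 point because they were not tested there.

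Among the other germ cell genes in E0771, 8 were tested, of which Tex101, Taf7l, Tdrd1 and Tex19.1 were called lower with MRTFA (log2 differences from -2.87 to -0.37) and none higher. Over all genes, 18.1% were called lower and 20.3% higher with MRTFA. The median of the 8 was -0.31 with MRTFA and -0.01 with MRTFB, beside -0.02 and -0.01 over all tested genes, and with MRTFB none passed limma or edgeR, while Tex101 had an unadjusted limma p under 0.05 and was called by DESeq2. Rhox1, at 448 ± 18.3 in MRTFA, 429 ± 53.4 in MRTFB and 476 ± 96.1 in control, differed by -0.07 with MRTFA (limma adjusted p = 0.783). Rhox2d, whose lower values in B16F10 did not pass the test, rose in E0771 with MRTFA by 0.78 (limma adjusted p = 0.00161). The rise was not particular to it. Rhox2g rose by 0.82, Rhox2h by 0.72 and Rhox2e by 0.64 (limma adjusted p = 0.00769, 0.000486 and 0.0374). Rhox2-ps and Rhox7-ps2 did not pass (-0.07 and -0.25, limma adjusted p = 0.83 and 0.512). Morc1 fell by 0.63 with MRTFA (limma adjusted p = 0.00918). Of 18 genes of DNA methylation tested, Tet1 and Dnmt3a rose and Hells, Uhrf1 and Dnmt1 fell with MRTFA, beside 38.4% of all genes called. Tet1, which oxidises methylated cytosine, rose by 5.06 (limma adjusted p = 1e-06), and Uhrf1 fell by 0.65 (limma adjusted p = 0.00299).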

How the data were processed

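RNA was measured in 18 libraries, grouped by the line, vector and replicate number in their labels. The submitters' processing notes list cutadapt 1.6, STAR 2.5.0a, HTSeq 0.5.3 and DESeq with the mm10 build. Further details (DESeq version, annotation release, strandedness, counting mode): not given in the sources used here. What the authors deposited is a signal per gene, in reads divided by the size factor of the library. All values were whole multiples of 1 step per library (tolerance 0.001 read). The whole reads recovered in this way served for depth, floors and the edgeR and DESeq2 alternatives.

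Genes were tested with limma 3.58.1 (trend, two-sided) on log2 of the scaled value plus 1, which understates changes of low genes. A gene was tested if 3 or more of the fitted libraries reached a value of 10. The 9 libraries of a line were fitted together. Calls needed a p under 0.05 after Benjamini-Hochberg adjustment over all genes tested. All 8 genes passed the filter on low values in B16F10 and 5 passed in E0771. No 2 libraries of a group were duplicates (chi-square per degree of freedom 11.7 to 59.2 over genes with at least 20 reads).

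Equal replicate numbers were compared by correlating deviations from group means across genes. The correlations were 0.353 to 0.567 for B16F10 MRTFA, 0.382 to 0.486 for B16F10 MRTFB and 0.459 to 0.553 for E0771 MRTFB, which were read as paired, and 0.084 to 0.525 for E0771 MRTFA, which was not. A comparison was read as paired if every correlation was over 0.1. E0771 MRTFA missed this by replicate 1 only (0.084, beside 0.461 and 0.525 in replicates 2 and 3), so its reading is a close one. What a number stands for is not in the labels.

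The 8 genes and the 11 gene lists were chosen with earlier results of these data known. The genes named beside the 8 are the transgenes' genes, Acta2, up to 4 genes per list that passed a test in B16F10 or else the most abundant, and the nearest tested protein-coding genes and most similar patterns. Rhox2d, Rhox2e, Rhox2g, Rhox2h, Rhox2-ps, Rhox7-ps2, Frzb, Gria3, the blood cell markers and list members that passed only in E0771 were named after their values were seen. Positions are from GENCODE M21, which held 18827 of the table's 18909 identifiers, and promoters from RefSeq on GRCm38.p6. Alternatives were edgeR 4.0.16, DESeq2 1.42.0, other pseudocounts, filters and scaling, other sets of fitted libraries, the replicate block and leaving libraries out.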

Additional observations from a re-analysis of the deposited data

Results flagged for a closer look

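2 genes stood out because all libraries of 1 line moved one way and all libraries of the other line the opposite way. These differences between lines were not tested, since the B16F10 side chose the genes. For Tmsb4x the E0771 minus B16F10 log2 difference was 4.70 (SE 0.52) with MRTFA and 3.08 (SE 0.52) with MRTFB. For Nckap1l with MRTFA it was 2.28 (SE 0.53).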

How the results depend on the processing

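The B16F10 differences of the 8 genes kept their sign in all 272 recomputed values. The groups did not overlap, so a change of sign was hardly possible. Of the 272 values, 270 moved by less than 1 residual SD. This SD is the spread of the gene's 9 log2 values around their group means before limma's moderation. The others were Gstp2 with MRTFA (-3.51) and Nckap1l with MRTFB (-3.80) without replicate 3 in any group, an alternative chosen after seeing the data. In E0771, 148 of 170 values kept sign and side of the threshold, 13 lost a call, 3 gained one and 6 changed sign. The sign changes were in MRTFB, at values near 0. Pir was 0.0088 with edgeR, 0.012 with DESeq2, 0.26 without MRTFB replicate 3, 0.21 without control replicate 1 and 0.074 without replicate 3 in any group, with a range of -0.30 to 0.26 when 1 library was left out. Rhox5 was -0.0087 without control replicate 3, with a range up to 0.11. With all 18 libraries in 1 fit, Rhox5 and Nckap1l with MRTFA and Tmsb4x with MRTFB lost their calls in E0771, at adjusted p of 0.35, 0.109 and 1.

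Counts over all genes moved more. For B16F10 MRTFA the count of called genes was 209 (181 higher, 28 lower), 324 with no filter on low values, 107 with a minimum of 50, 357 with DESeq2, 421 with all 18 libraries in 1 fit, and 37 to 324 when 1 library was left out. The extremes were without MRTFA replicate 1 and without control replicate 3. For B16F10 MRTFB it was 17 (2 higher, 15 lower), 5 with a minimum of 50, 179 with DESeq2, 57 with all 18 libraries, 9 with the 6 libraries of the comparison, 224 without replicate 3 in any group, and 0 to 129 when 1 library was left out, 129 being without control replicate 3. For E0771 MRTFA it was 5064, and 3260 to 4621 when 1 library was left out. For E0771 MRTFB it was 19, 51 with DESeq2, 5 with the 6 libraries, 10 without replicate 3 in any group and 7 to 15 when 1 library was left out. The causes were not tested.

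With the replicate number as a block, the paired fits called 855 genes for B16F10 MRTFA, 603 for B16F10 MRTFB and 33 for E0771 MRTFB. For E0771 MRTFA, not read as paired, the block gave 6405. The block changed no other call of the 8 genes in E0771 than those of Dppa2 and Pir with MRTFA. With 3 libraries per group, differences of Dppa2 and Pir in E0771 within their 95% intervals could not be resolved.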

Other observations

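The level of Rhox5 in B16F10 followed that of Dppa2 across the 9 libraries (Pearson's r = 0.973 as a description, since both were chosen on these libraries). Of the 6 genes with a promoter entry, Rhox5 held 4 CG pairs in the window, Pir 10, Gstp2 12, Tmsb4x 15, Ptpn13 24, and Fam178b 24, 23 or 1 by its start, where the median of 32851 promoters was 6 and the quartiles were 2 and 16.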
